A study of Bos taurus with 12 samples.

Results

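Ion channel genes were followed in cultures of bovine chromaffin cells, which secrete adrenaline and noradrenaline in the adrenal medulla. The set held 76 of the 9155 genes named on the array. A gene belonged to it when a probe set carried its symbol alone and the symbol began as in the voltage-gated potassium, calcium, sodium and HCN families or the epithelial sodium, chloride, TRP, P2X, ionotropic glutamate, GABA-A and nicotinic acetylcholine receptor families. These families had 118 probe sets among the 24016 tested, and each gene was read from its brightest one. Another 5 family genes, KCNJ8, KCNE1, SCNN1G, GRIA3 and CHRNB4, were left out of the set with earlier results of these data known, so the counts describe the families without them. A symbol is not proof of a channel: GRINA, a membrane protein of the Golgi and endoplasmic reticulum, TRPC4AP, a protein that binds a TRP channel, and KCNRG, a regulator of potassium channels, entered by name only.

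The arrays compared 4 groups of cells from adrenal glands. The untreated group had no addition, the IL6 group received interleukin 6 at 10 nM for 24 h, the IFNalpha group received human interferon alpha at 1 nM for 24 h, and the histamine group received histamine at 10 µM for 6 h. The labels name no strain, age or animal, the interferon was the human protein added to cattle cells, and the histamine time differed from the cytokine time. Each group had 3 arrays that the design text calls technical repeats, so p-values measured only the spread between these arrays.

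Chromaffin cells fire action potentials and release catecholamines when acetylcholine from the splanchnic nerve opens nicotinic receptors. Depolarisation opens voltage-gated sodium and calcium channels, calcium entry drives exocytosis, and voltage-gated and calcium-activated potassium channels repolarise the membrane and set the firing pattern. The pore-forming subunits of these channels work with auxiliary subunits that tune their gating and their number at the surface.

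All values are log2 expression levels as deposited, and a change is the difference between group means on that scale. "Rose" and "fell" mark an adjusted p under 0.05 from limma with Benjamini-Hochberg adjustment over all probe sets. A gene was "called" when its change also reached 1.5-fold. The 3 treatments were compared with the same untreated arrays, so their results are given side by side and not as independent evidence. In bulk RNA, fewer cells of a type and less RNA per cell cannot be told apart.

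The chromaffin cell markers were bright in untreated cells: the lowest untreated array mean over the 11 measured of 16 markers was 11.90, with TH at 13.45, CHGA at 13.62 and PENK at 13.89. Within a group, arrays correlated at 0.993 to 0.998. Markers of other cells moved with the treatments. The mean of 10 adrenal cortex markers (10 of 10 measured) was 0.40 to 0.45 below the untreated mean after IL6, 0.54 to 0.61 below it after IFNalpha and 0.41 to 0.44 above it after histamine. The mean of 8 fibroblast and mural markers was 0.05 to 0.12 lower after IL6, 0.17 to 0.31 lower after IFNalpha and 0.31 to 0.39 higher after histamine. The mean of 8 endothelial markers was lower on every treated array, by 0.04 to 0.33, and 7 of 8 leukocyte markers averaged 0.32 to 0.36 higher after IL6 and 0.13 to 0.21 higher after histamine. The leukocyte markers did not move together: after IL6 CORO1A went from 7.66 to 9.36 and CD14 from 7.32 to 8.35, ITGB2 went from 6.64 to 5.69, and the median change was 0.15. Other lists were mixed as well. After IL6 the mural marker ACTA2 went from 9.01 to 8.34 and POSTN from 5.98 to 6.93. Among chromaffin markers, PNMT went from 8.12 to 7.41 and SLC18A2 from 11.50 to 12.35. After histamine the endothelial marker TEK went from 6.59 to 5.78 and CLDN5 from 4.98 to 5.60. The 3 measured of 6 Schwann cell markers averaged 0.07 to 0.23 higher after IL6 and 0.11 to 0.23 lower after IFNalpha. Array levels have no true zero; 2 endothelial markers and 1 leukocyte marker had means below the lower quartile of the array, and all measured cortex, fibroblast and Schwann cell markers lay above it. The chromaffin markers themselves averaged 0.04 to 0.23 lower after IL6 and 0.22 to 0.35 higher after histamine; the median marker's change was -0.15 and 0.05, and PNMT, which makes adrenaline, went from 8.12 to 10.41 with histamine. A list of 28 hypoxia and glycolysis genes, 24 of them measured, averaged 0.64 and 1.00 higher on IL6 arrays 2 and 3 and 0.70 higher on IFNalpha array 3, against 0.08 on IL6 array 1 and -0.07 and -0.06 on the other IFNalpha arrays. The part of these shifts in the channel results was not tested. Members that passed or failed otherwise without the 3 arrays high in hypoxia genes are given with those values.

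Most channel genes were dim, and their changes were of about the size seen over all probe sets. Their means over 12 arrays ran from 3.96 to 10.31 with a median of 5.51, against a median of 6.44 for all probe sets, and 22 of the 76 lay below the lowest array's lower quartile of 5.02. Only 8 genes had a mean of 8 or more, among them CACNB1 and CACNB3, which encode beta subunits of voltage-gated calcium channels, KCNMA1 and KCNMB4 of the large-conductance calcium-activated potassium (BK) channel, CHRNA3 and P2RX4. The change was under 0.2 in size for 60 members after IL6, 60 after IFNalpha and 52 after histamine. These were 78.9%, 78.9% and 68.4% of members, near the 74.8%, 77% and 65.5% of all probe sets. The median 95% interval reached 0.18 to either side of a change, so changes smaller than that were not resolved for a typical member. Brighter here means above the median level of all probe sets, as for 18 members, and dimmer below it, as for 58. Dimmer probe sets passed less often by adjusted p under each treatment. Shares over all 76 members were therefore not compared with the background at like level. Shares within each level are given below, and their differences were not tested.

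**Figure D1:**
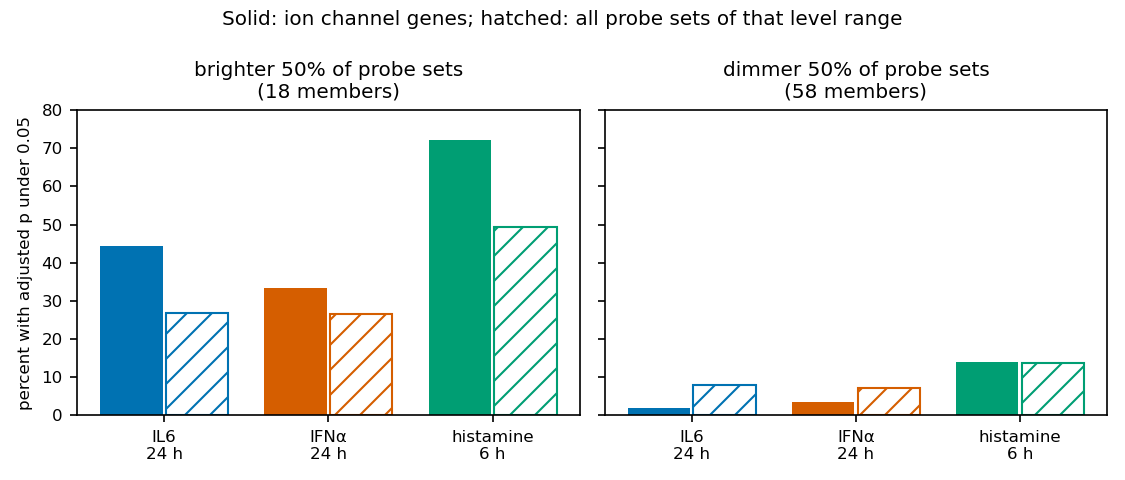
Solid bars give the percent of ion channel genes, and hatched bars the percent of all probe sets, whose change from untreated had an adjusted p under 0.05, for the brighter 50% of probe sets (left) and the dimmer 50% (right). The 18 members in the brighter 50% passed at 44.4% after IL6, 33.3% after IFNalpha and 72.2% after histamine, whereas 58 dimmer members passed at 1.72%, 3.45% and 13.8%; the hatched bars stand at 26.9%, 26.4% and 49.4% on the left and at 7.8%, 7.07% and 13.7% on the right.

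IL6 changed the 76 members little, but 4 family genes left out of the set rose strongly. CACNB3, CHRNE and P2RX4 rose, and CACNB1, KCNMB4, KCNIP2, CHRNA5, GABRD and CLCN4 fell, none of them by 1.5-fold. No member was called, against 2.39% of all probe sets (1.44% higher, 0.949% lower) and 2.76% of all genes with a single symbol. By limma's adjusted p alone 9 of 76 members (11.8%) passed, 3 higher and 6 lower, against 17.4% of all probe sets (6.68% higher, 10.7% lower). At like level the order was mixed. The 18 brighter members passed at 44.4%, above the 26.9% of all brighter probe sets. The 58 dimmer members passed at 1.72%, below the 7.8% of all dimmer ones. An unadjusted p under 0.05 was found for 20 members (26.3%) against 31% of all. limma's test against a fold of 1.2 also called none. The median change was 0.06, beside 0.00 for all probe sets. Of the 5 genes left out, 4 differ from this. KCNJ8, an inward rectifier subunit, rose by 2.78 and GRIA3, an AMPA receptor subunit, by 2.12. KCNE1, a potassium channel beta subunit, rose by 1.96 and SCNN1G, an epithelial sodium channel subunit, by 1.48 (limma adjusted p at most 2.31e-06 for each of the 4). With the 5 put back, 4 of 81 family genes were called, so the absence of calls describes the set and not the families. Without the 3 arrays high in hypoxia genes, 6 members passed after IL6 by adjusted p, all among the 9, against 12% of all probe sets in that fit.

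After IFNalpha the nicotinic subunit gene CHRNB1 rose, and the kainate receptor gene GRIK1 and the BK channel gene KCNMA1 fell, by 1.52-fold to 1.69-fold. These 3 called members were 3.95% of the set, against 3.36% of all probe sets (2.18% higher, 1.18% lower) and 3.95% of single-symbol genes, a share near the background. By adjusted p alone 8 members passed, 3 higher and 5 lower (10.5%), against 16.7% of all probe sets (6.74% higher, 9.99% lower). The others were GABRB1 and GRINA, which rose, and CACNB1, CLCN4 and P2RX4, which fell. At like level, brighter members passed by adjusted p at 33.3% against 26.4% of brighter probe sets, and dimmer members at 3.45% against 7.07%. The median change was -0.02 for members and -0.02 for all probe sets. Of the genes left out, SCNN1G was called, with a rise of 1.77 (limma adjusted p = 1.19e-09). By adjusted p 10 members passed without the 3 arrays high in hypoxia genes, against 17.4% of all probe sets in that fit. Of the 8, 7 were among them, and CACNB3, CLCN3 (-0.14, adjusted p = 0.0326) and TRPC2 (0.26, adjusted p = 0.0376) joined.

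After histamine KCNB2, which encodes a delayed rectifier potassium channel, rose 3.50-fold, and GRIK1 fell 2.0-fold. These were the 2 called members (2.63%), against 5.7% of all probe sets (2.99% higher, 2.71% lower) and 6.98% of single-symbol genes. By adjusted p alone 21 members passed, 9 higher and 12 lower (27.6%), against 31.6% of all probe sets (15.1% higher, 16.4% lower). Brighter members passed at 72.2%, above the 49.4% of brighter probe sets, and dimmer members at 13.8%, near the 13.7% of dimmer ones. The median change was 0.02, beside -0.00 for all. Of the genes left out, KCNE1 rose by 1.88 (limma adjusted p = 1.35e-09) and CHRNB4 fell. Leaving out the 3 arrays high in hypoxia genes changes only the estimate of the spread here, and 23 members passed, against 36.2% of all probe sets in that fit, with GRIK5 (-0.22, adjusted p = 0.021) and KCNH1 (0.25, adjusted p = 0.0326) added to the 21.

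IL6 and IFNalpha differed directly in 14 members by adjusted p (8 higher with IL6, 6 lower; 18.4%), against 28.5% of all probe sets (13.7% higher, 14.8% lower). CACNB3 was called higher with IL6, and CHRNB1 and KCNIP2 were called lower, 3.95% of members against 6.11% of all probe sets (2.82% higher, 3.29% lower) and 6.96% of single-symbol genes. The moderated F test over the 4 groups passed 28 of 76 members (36.8%) against 49.1% of all probe sets. The 18.4% and 36.8% are shares over members of all levels. Between IL6 and IFNalpha, brighter members passed by adjusted p at 44.4% against 42.9% of brighter probe sets. Dimmer members passed at 10.3% against 14.1%. Across the 3 treatments 53 members passed in none, 11 in 1, 9 in 2 and 3 in all 3. CACNB3, KCNMA1, KCNMB4 and P2RX4 passed in opposite directions under different treatments. These counts were made for members only, so no share over all probe sets stands beside them. Those passing in all 3 were CACNB1, CLCN4 and P2RX4. No CACNB1 change passed over the mean of its probe sets. The CLCN4 falls after IL6 and IFNalpha, and both falls of P2RX4, were lost when some single arrays were left out, as given with their values.

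**Figure D2:**
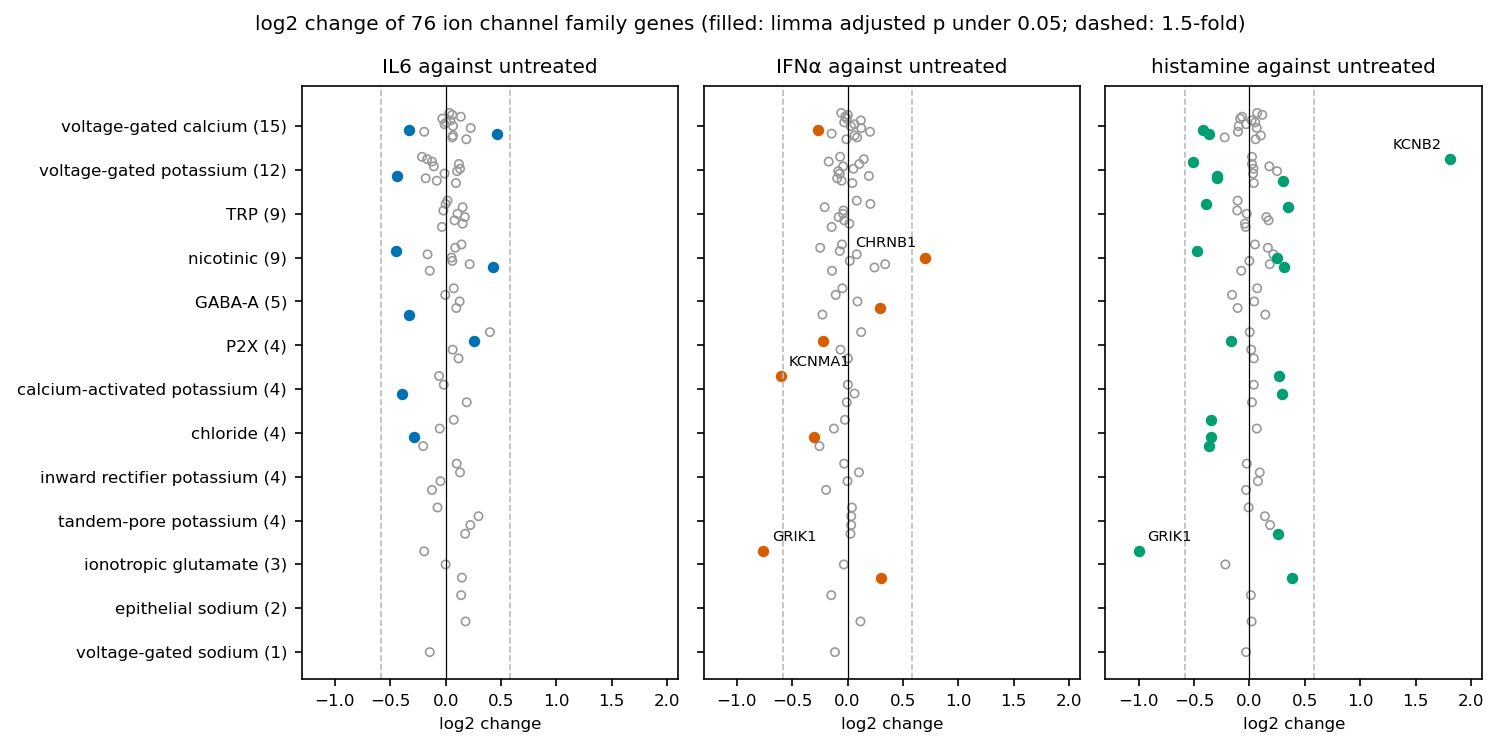
Each point is a gene's change from untreated on the log2 scale, by channel family, with a panel for each treatment; filled points have an adjusted p under 0.05 and dashed lines mark 1.5-fold. Most points lie close to 0, KCNB2 stands at 1.81 after histamine, and GRIK1 lies at -0.76 after IFNalpha and -1.0 after histamine.

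Among 12 voltage-gated potassium channel genes and partners, 5 passed after histamine (2 higher, 3 lower), 1 after IL6 and 0 after IFNalpha by adjusted p. Of all probe sets, 31.6% passed after histamine, 17.4% after IL6 and 16.7% after IFNalpha. The family counts were not tested against these shares. KCNB2 stood at 5.67, 5.62 and 5.56 on the untreated arrays and at 7.40, 7.36 and 7.51 after histamine, with 5.37, 5.51 and 5.47 after IL6 and 5.66, 5.71 and 5.92 after IFNalpha. Every histamine array lay above every other array. The rise was 1.81 (SE 0.08, 95% interval 1.63 to 1.98, limma adjusted p = 1.5e-09), and the mean went from 5.62, under the median of all probe sets, to 7.42.

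KCND1, which encodes a rapidly inactivating A-type channel and was named after its values were seen, fell after histamine, from 5.99, 5.98 and 5.85 to 5.41, 5.36 and 5.53 (change -0.51, limma adjusted p = 0.000277). KCNIP2, which encodes a calcium-binding auxiliary subunit of A-type channels, had 7.07, 7.0 and 7.0 untreated, 6.45, 6.60 and 6.69 with IL6, 7.12, 7.24 and 7.29 with IFNalpha, and 6.70, 6.70 and 6.79 with histamine. It fell after IL6 (-0.44) and histamine (-0.29), and no array of either group reached the untreated or IFNalpha arrays. A second, dimmer KCNIP2 probe set at a mean of 5.30 had 0.23 after IL6 and -0.08 after histamine and passed in neither. Over the mean of both probe sets neither fall passed: KCNIP2 had -0.11 after IL6 (limma adjusted p = 0.392) and -0.19 after histamine (adjusted p = 0.0861). KCNQ3, an M-current subunit, rose after histamine by 0.30 (adjusted p = 0.0322), which was lost without untreated array 1 or 2 or any histamine array, with an adjusted p up to 0.164. KCNQ1, a slow delayed rectifier subunit named after its values were seen, fell by 0.29 after histamine (adjusted p = 0.00994 by limma, 0.0541 without untreated array 2). Over the mean of its probe sets KCNQ1 had -0.08 (adjusted p = 0.371).

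BK channels open to depolarisation and calcium together and shape the action potential and the firing of chromaffin cells. KCNMA1, the pore-forming subunit, had 9.44, 9.48 and 9.34 untreated, 9.40, 9.36 and 9.32 with IL6, 8.85, 8.79 and 8.81 with IFNalpha, and 9.66, 9.68 and 9.73 with histamine. The IFNalpha arrays all lay below the rest and the histamine arrays all above. The fall with IFNalpha was 0.60 (SE 0.05, 95% interval -0.71 to -0.50, limma adjusted p = 4.87e-07), and the rise with histamine was 0.27 (adjusted p = 0.000686). The 1.52-fold fall is at the edge of the fold minimum: without untreated array 2 it was -0.57, below it. KCNMA1 had 4 probe sets, and 3 of them fell with IFNalpha, by 0.60, 0.45 and 0.34. The fourth, at a mean level of 4.25, had a change of 0.00, and over the mean of all 4 the change was -0.35 (adjusted p = 0.000174).

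KCNMB4, the neuronal-type beta subunit that slows BK gating, followed another order. Its values were 9.02, 8.95 and 8.95 untreated, 8.53, 8.59 and 8.63 with IL6, 9.05, 9.05 and 9.01 with IFNalpha, and 9.27, 9.24 and 9.30 with histamine. It fell by 0.39 after IL6 (limma adjusted p = 6.35e-05) and rose by 0.30 after histamine (adjusted p = 0.000257), with a change of 0.06 after IFNalpha (adjusted p = 0.456). The lowest histamine array was above all arrays of the other groups, and the highest IL6 array was below them. Its second probe set fell by 0.56 after IL6 and had 0.13 after histamine, which did not pass. KCNMB1, the smooth muscle beta subunit, and KCNN4, an intermediate-conductance channel, had changes of -0.02 to 0.19 and did not pass.

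**Figure D3:**
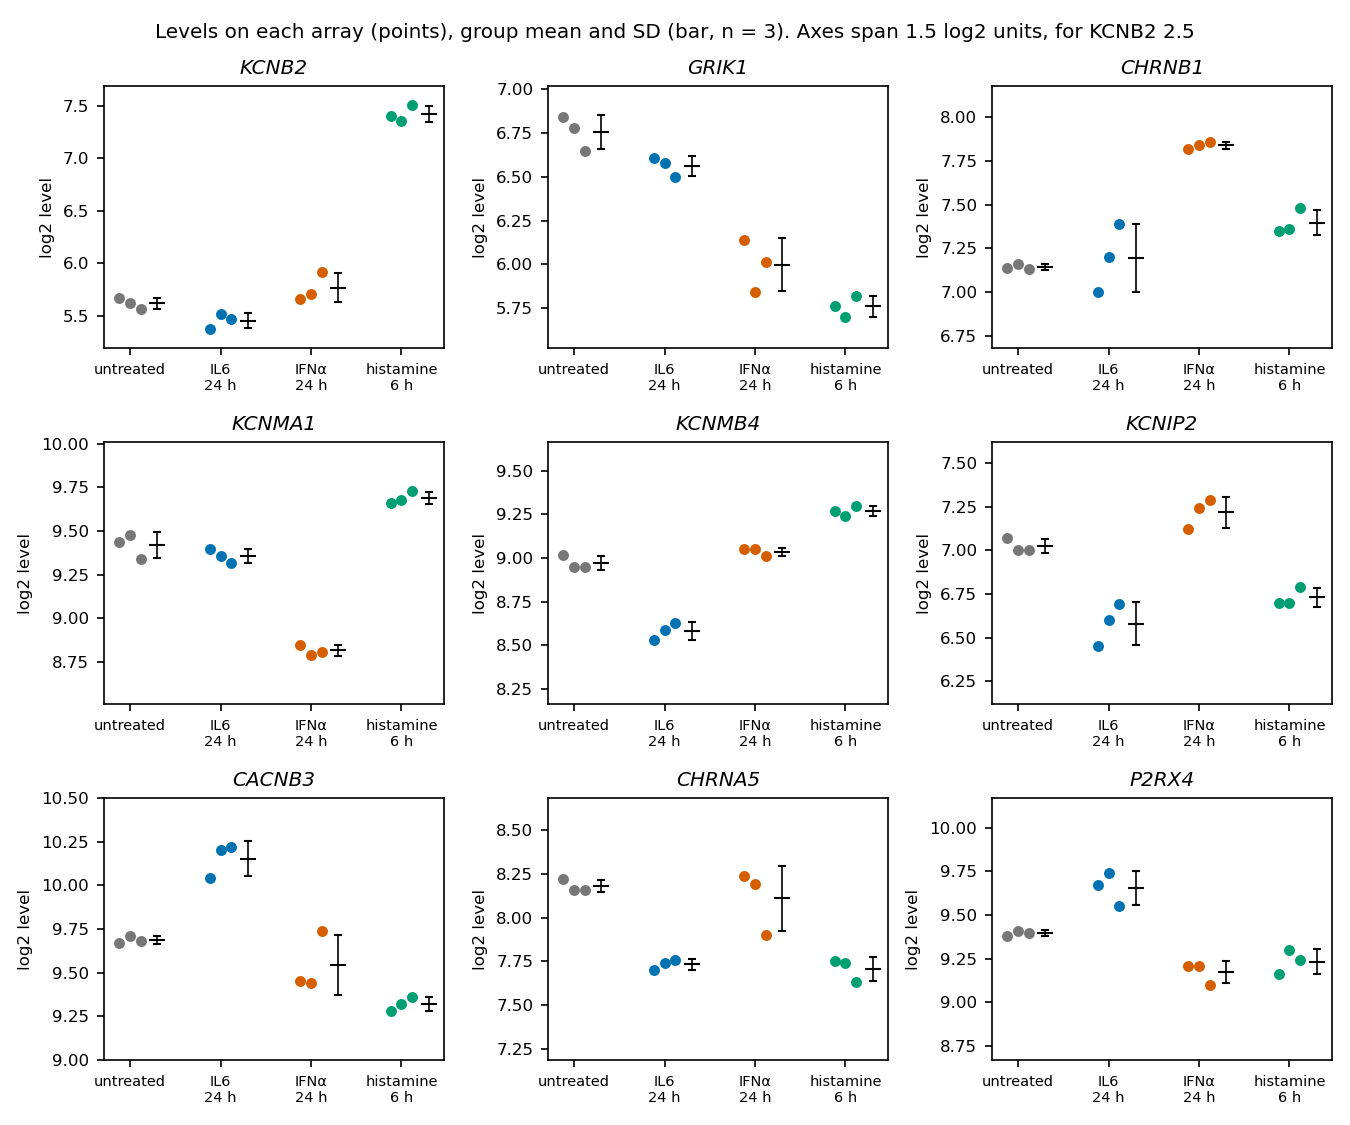
Each panel shows 1 gene's log2 level on every array, with the group mean and SD (n = 3). KCNB2 is high on the 3 histamine arrays alone, GRIK1 is low after IFNalpha and histamine, KCNMA1 is low after IFNalpha, KCNMB4 is low after IL6, and CHRNB1 is high after IFNalpha. The KCNB2 panel spans 2.5 log2 units and the other panels 1.5.

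Of the 15 voltage-gated calcium channel genes, only beta subunits passed a test against untreated. Beta subunits bind the pore-forming alpha-1 subunit inside the cell and raise its surface number and its opening. CACNB3 had 9.67, 9.71 and 9.68 untreated, 10.04, 10.20 and 10.22 with IL6, 9.45, 9.44 and 9.74 with IFNalpha, and 9.28, 9.32 and 9.36 with histamine. It rose by 0.47 after IL6 (limma adjusted p = 0.000473) and fell by 0.37 after histamine (adjusted p = 0.00122), and its change of -0.14 with IFNalpha did not pass. IFNalpha array 3 lay above all untreated arrays and the other IFNalpha arrays lay below them. Without the 3 arrays high in hypoxia genes, the IFNalpha change was -0.24 (adjusted p = 0.00185).

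CACNB1 fell under every treatment by its brightest probe set, whose mean was 10.31, by 0.33 after IL6, 0.26 after IFNalpha and 0.42 after histamine (limma adjusted p at most 0.000407), from 10.57, 10.59 and 10.53 untreated to 10.08, 10.15 and 10.21 with histamine. Its other probe sets, at means of 8.25 and 4.39, rose after histamine, by 0.33 and 0.40 (adjusted p = 0.00827 and 0.00204), and did not pass after either cytokine. The gene's direction after histamine depended on the probe set, and over the mean of its probe sets no CACNB1 change passed, with -0.07 after IL6 (adjusted p = 0.444), -0.02 after IFNalpha (0.822) and 0.10 after histamine (0.178).

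The alpha-1 genes CACNA1A, CACNA1B, CACNA1D and CACNA1H, which form P/Q-, N-, L- and T-type channels, had changes from -0.07 to 0.14 and none passed. Their means over 12 arrays were 7.115, 6.20, 4.98 and 5.15, against 9.68 for CACNB3 and 10.31 for CACNB1. The alpha-1 genes and these beta genes were thus not compared at a like level. CACNB2 and CACNB4, at 5.53 and 5.06, were dim as well. CACNA1D, CACNA2D1 (4.66) and SCN4B (4.35) lay below the lower quartile of 5.02. CACNA2D1, the target of gabapentin, had 0.23 after IL6, 0.12 after IFNalpha and 0.07 after histamine and did not pass. CACNB2 and CACNB4 did not pass against untreated either, and CACNB2 was 0.40 lower with IL6 than with IFNalpha (limma adjusted p = 0.0014). That difference was -0.29 (adjusted p = 0.0705) without the 3 arrays high in hypoxia genes. SCN4B, a sodium channel beta subunit and the only voltage-gated sodium channel gene in the set, had changes of -0.14 to -0.03 and did not pass. Of a fixed list of 48 channel genes of chromaffin cells, 23 were members; the others were not analysed here.

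**Figure D4:**
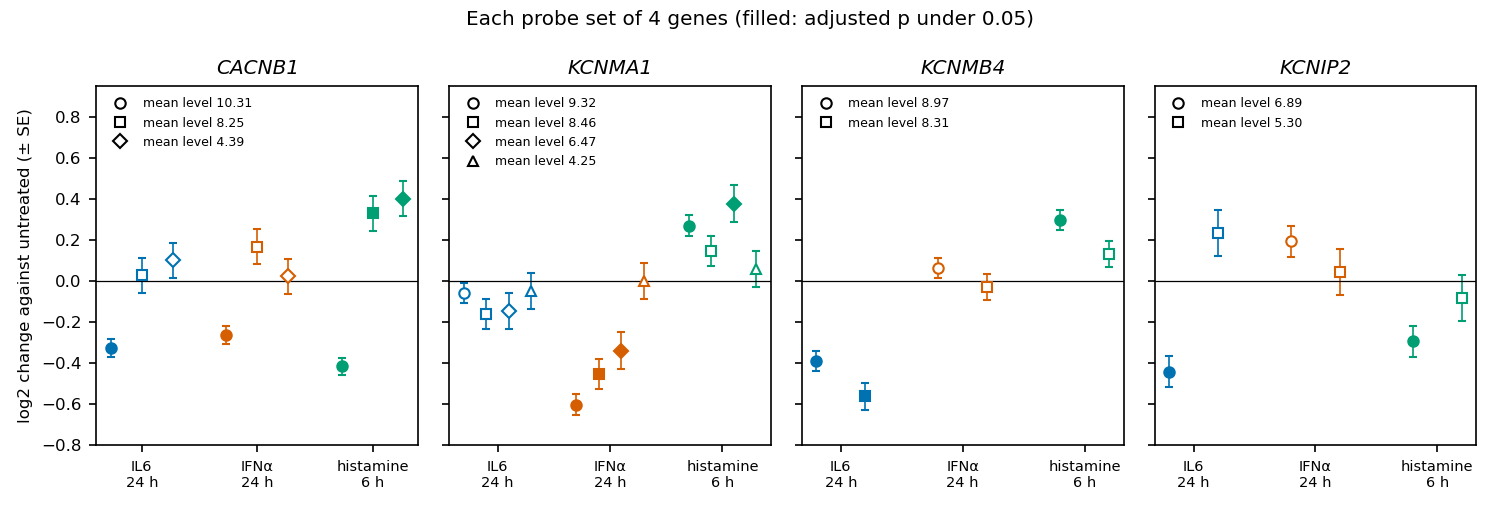
Each point is the change of a probe set from untreated on the log2 scale with its SE, for 4 genes with several probe sets; filled points have an adjusted p under 0.05, and the shapes mark the mean level of the probe set. The probe sets of CACNB1 lie on opposite sides of 0 after histamine, whereas 3 of 4 KCNMA1 probe sets lie below 0 after IFNalpha.

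Nicotinic receptors are pentamers, and the ganglionic type of chromaffin cells contains the alpha-3 subunit with beta-4 and often alpha-5. CHRNA5, an accessory alpha subunit, had 8.22, 8.16 and 8.16 untreated, 7.70, 7.74 and 7.76 with IL6, 8.24, 8.19 and 7.90 with IFNalpha, and 7.75, 7.74 and 7.63 with histamine. It fell by 0.45 after IL6 (limma adjusted p = 0.0013) and by 0.47 after histamine (adjusted p = 0.00031), and no array of these groups overlapped with untreated. The IFNalpha arrays did not pass (-0.07), and array 3, high in hypoxia genes, was the low one.

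CHRNA3 did not pass against untreated, with changes of 0.09 after IL6 (95% interval -0.14 to 0.31), -0.25 after IFNalpha and 0.17 after histamine. CHRNA3 and CHRNA5 are neighbours in the RefSeq gene order of cattle, with CHRNB4 next to CHRNA3. CHRNB4, one of the genes left out, had -0.11 after IL6 and -0.30 after IFNalpha, and it fell by 0.67 after histamine (limma adjusted p = 0.00302). The difference between these neighbours was not tested. CHRNA7 and CHRNB2 had changes of -0.16 to 0.22 and did not pass.

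CHRNB1, the muscle-type beta subunit, had 7.14, 7.16 and 7.13 untreated and 7.82, 7.84 and 7.86 with IFNalpha. With IL6 it had 7.0, 7.20 and 7.39, and with histamine 7.35, 7.36 and 7.48. All IFNalpha arrays lay above all other arrays, and the rise was 0.70 (SE 0.08, 95% interval 0.52 to 0.88, limma adjusted p = 2.63e-05). The rise with histamine, 0.25 (adjusted p = 0.0314), was lost without any untreated array or histamine array 2 or 3, with an adjusted p up to 0.108. The IL6 arrays spread from below to above the untreated ones, and the highest of them were also the arrays high in hypoxia genes. CHRNE, another muscle-type subunit, named after its values were seen, rose by 0.43 after IL6 (adjusted p = 0.00342) and by 0.31 after histamine (adjusted p = 0.0115). The IL6 result was 0.33 (adjusted p = 0.0628) without the 3 arrays high in hypoxia genes, and the histamine result had an adjusted p of 0.0506 without histamine array 3.

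GRIK1, which encodes a kainate receptor subunit, fell with IFNalpha and with histamine. Its values were 6.84, 6.78 and 6.65 untreated, 6.61, 6.58 and 6.50 with IL6, 6.14, 5.84 and 6.01 with IFNalpha, and 5.76, 5.70 and 5.82 with histamine. The highest array of either lowered group was under the lowest IL6 array. The change was -0.76 after IFNalpha (SE 0.08, 95% interval -0.94 to -0.58, limma adjusted p = 1.22e-05) and -1.0 after histamine (SE 0.08, 95% interval -1.18 to -0.82, adjusted p = 6.25e-07). IL6 lay 0.57 above IFNalpha (adjusted p = 0.000124). GRINA, named after its values were seen, rose by 0.30 after IFNalpha (adjusted p = 0.00891) and by 0.39 after histamine (adjusted p = 0.000709), while its 2 dimmer probe sets had changes of -0.13 to 0.13 and did not pass. Over the mean of its probe sets GRINA passed neither after IFNalpha (0.10, adjusted p = 0.17) nor after histamine (0.11, adjusted p = 0.0993).

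Of 5 GABA-A receptor subunits, 1 passed after IL6 and 1 after IFNalpha, beside 17.4% and 16.7% of all probe sets. Both were named after their values were seen. GABRD, an extrasynaptic delta subunit, fell after IL6, from 5.78, 5.79 and 5.92 to 5.47, 5.50 and 5.53 (change -0.33, limma adjusted p = 0.0224). The IL6 arrays all lay below untreated, but the fall did not pass without untreated array 3 or IL6 array 2, with an adjusted p up to 0.0942. GABRD had -0.36 and did not pass (adjusted p = 0.0691) without the 3 arrays high in hypoxia genes. GABRB1, a beta subunit, had a change of 0.29 with IFNalpha (adjusted p = 0.0156), between means of 4.09 and 4.39 that both lay below the lower quartile of 5.02. It was lost without untreated array 2 or IFNalpha array 2, with an adjusted p up to 0.0797.

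P2X receptors are cation channels opened by extracellular ATP. P2RX4 had 9.38, 9.41 and 9.40 untreated, 9.67, 9.74 and 9.55 with IL6, 9.21, 9.21 and 9.10 with IFNalpha, and 9.16, 9.30 and 9.24 with histamine. It rose after IL6 (0.26, limma adjusted p = 0.00702) and fell after IFNalpha (-0.22, adjusted p = 0.0148) and histamine (-0.16, adjusted p = 0.0442), with no overlap with the untreated arrays in any of the 3 groups. The fall with IFNalpha was lost without untreated array 2 or 3 or IFNalpha array 3, with an adjusted p up to 0.0595. The fall with histamine was lost without any untreated array, IFNalpha array 1 or 2, or histamine array 1 or 3, with an adjusted p up to 0.171. Median centring and a fit without the mean-variance trend lost this fall too. P2RX7, its neighbour in the cattle gene order and a receptor of immune cells, had 0.12, 0.00 and 0.04 and did not pass. P2RX2 had 0.40 after IL6 and did not pass (adjusted p = 0.0574), with 5.16, 5.65 and 5.71 on the IL6 arrays. Its change was 0.05 (adjusted p = 0.869) without the 3 arrays high in hypoxia genes.

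The 4 chloride channel and transporter genes of the CLCN family included 3 that fell after histamine, as did 16.4% of all probe sets. All 3 were named after their values were seen, and the family count was not tested against that share. CLCN2, a plasma membrane channel, fell by 0.35, CLCN4, an endosomal exchanger, by 0.35, and CLCN7, a lysosomal exchanger, by 0.36 (limma adjusted p = 0.00746, 0.00887 and 0.00749). CLCN7 arrays went from 7.88, 8.0 and 7.97 to 7.43, 7.57 and 7.76, below the lowest untreated array, and its other probe set changed by -0.28 (adjusted p = 0.00539). CLCN4 fell after IL6 (-0.28, adjusted p = 0.0481) and IFNalpha (-0.30, adjusted p = 0.0358). The IL6 result was lost without any untreated array, IL6 array 2 or 3, IFNalpha array 2, or histamine array 1 or 2 (adjusted p up to 0.149). Quantile normalisation, median centring and a fit without the mean-variance trend lost it too. The IFNalpha result was lost without any untreated array, IL6 array 2, or IFNalpha array 2 or 3 (adjusted p up to 0.149), and when the compared groups were fitted alone. Without the 3 arrays high in hypoxia genes, the changes were -0.20 and -0.19 and neither passed.

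Among 9 genes with TRP symbols, TRPC2 fell after histamine, from 7.37, 7.38 and 7.48 to 6.93, 7.05 and 7.07 (change -0.39, limma adjusted p = 0.000856; -0.16 and adjusted p = 0.0483 over the mean of its probe sets), and TRPC4 rose, from 5.35, 5.55 and 5.20 to 5.60, 5.69 and 5.86 (change 0.35, adjusted p = 0.0139). Both encode canonical TRP channels and were named after their values were seen. The TRPC4 rise was lost without untreated array 3 or histamine array 3, with an adjusted p up to 0.0781. TRPC1 and TRPV2 had changes of -0.11 to 0.15 and did not pass. The 4 inward rectifier and 2 epithelial sodium channel genes did not pass under any treatment; after histamine the inward rectifiers ranged from -0.03 to 0.09. Of the 4 tandem-pore-domain potassium channels, KCNK5 rose after histamine by 0.26 (adjusted p = 0.0414), lost without untreated array 1, IL6 array 2, IFNalpha array 2 or any histamine array, with an adjusted p up to 0.195. It encodes an acid- and alkali-sensitive background channel and was named after its values were seen.

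The cytokine groups, both of 24 h, were compared directly. CACNB3 was 0.61 higher with IL6 (limma adjusted p = 1.49e-05), CHRNB1 0.64 lower (adjusted p = 3.35e-05) and KCNIP2 0.64 lower (adjusted p = 1.34e-05). KCNMA1 (0.54, adjusted p = 9.4e-07), P2RX4 (0.48, adjusted p = 1.64e-05), TRPC4 (0.36, adjusted p = 0.0136) and CHRNA3 (0.33, adjusted p = 0.0259) were higher with IL6 by smaller amounts. KCNMB4 (-0.45, adjusted p = 4.93e-06) and CHRNA5 (-0.38, adjusted p = 0.00224) were lower. CACNB2, GRIK1, KCNB2 (-0.31, adjusted p = 0.00949), SCNN1A (0.29, adjusted p = 0.0105) and TRPC6 (0.25, adjusted p = 0.0164, both means below the lower quartile) also differed. The CHRNA3 arrays of the groups overlapped, and its result was lost without IL6 array 1 or 2 or IFNalpha array 1 or 3, with an adjusted p up to 0.0937. TRPC4 was lost without IL6 array 1 (adjusted p = 0.0501) and TRPC6 without IFNalpha array 1 or 2 (up to 0.0688). TRPC4, TRPC6 and SCNN1A, an epithelial sodium channel subunit, were named after their values were seen. Neither KCNB2 (adjusted p = 0.0582) nor TRPC6 (0.0647) passed without the 3 arrays high in hypoxia genes. Without the 3 arrays high in hypoxia genes, the difference was 0.60 for CACNB3, -0.83 for CHRNB1 and -0.73 for KCNIP2, where the single IL6 array left was assumed to have the spread of the others. By adjusted p 11 members passed in that fit, all among the 14, against 20.7% of all probe sets. CACNB3 fell below the fold minimum without IL6 array 3 (0.58), IFNalpha array 1 (0.56) or IFNalpha array 2 (0.56). CHRNB1 (-0.55) and KCNIP2 (-0.57) did so without IL6 array 1. Over the mean of its probe sets, KCNIP2 differed by -0.22 and did not pass (limma adjusted p = 0.0507), and KCNMA1 differed by 0.25 (adjusted p = 0.00171).

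Genes that assemble, carry or regulate channels, from a list of 68 with 30 measured, are given beside the members. The list was chosen with earlier results of these data known, so its shares describe the listed genes only. After IL6, FGF13, an intracellular partner of voltage-gated sodium channels, fell by 1.32 (limma adjusted p = 3.7e-06), from 9.76, 9.62 and 9.64 to 8.45, 8.32 and 8.29. STAC, an adaptor of L-type calcium channels, fell by 0.70 (adjusted p = 5.67e-07), AKAP5, which anchors kinases near channels, fell by 0.71 (adjusted p = 0.00119), and NEDD4L, a ubiquitin ligase that removes epithelial sodium channels from the membrane, rose by 0.65 (adjusted p = 1.1e-06). These were 4 called genes of 30 (13.3%, against 2.76% of single-symbol genes). By adjusted p alone 4 of 30 were higher and 9 of 30 lower, beside 6.68% higher and 10.7% lower of all probe sets.

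After histamine, FGF12, a relative of FGF13, rose from 4.85, 4.99 and 4.89 to 6.44, 6.52 and 6.29, a change of 1.51 from untreated levels below the lower quartile (limma adjusted p = 1.48e-08). NEDD4L rose by 0.87 (adjusted p = 2.82e-08), from 9.0, 9.10 and 8.98 to 9.93, 9.89 and 9.87, and LGI1, a secreted protein that binds potassium channel complexes, fell by 0.84 (adjusted p = 2.56e-06). AKAP5 fell by 0.77 (adjusted p = 0.000231). Over the mean of its probe sets AKAP5 had -0.51 after IL6 and -0.55 after histamine, under the fold minimum. After histamine 4 of 30 were called (13.3%, against 6.98% of single-symbol genes). By adjusted p alone 7 of 30 were higher and 7 of 30 lower, beside 15.1% higher and 16.4% lower of all probe sets.

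After IFNalpha SGK1, a kinase that opposes NEDD4L, was the only call among the 30 (3.33%, against 3.95% of single-symbol genes). Its IFNalpha arrays were 8.53, 8.54 and 7.92 against 9.03, 8.92 and 8.98, and its fall of 0.65 (limma adjusted p = 0.0183) was lost without untreated array 1 or 3 or IFNalpha array 3. With limma's robust option the SGK1 fall did not pass (adjusted p = 0.0677). Over the mean of its probe sets SGK1 had -0.44, under the fold minimum. Its lowest IFNalpha array, array 3, was high in hypoxia genes, and without the 3 such arrays the change was -0.44. By adjusted p alone 1 of 30 was higher and 10 of 30 lower, beside 6.74% higher and 9.99% lower of all probe sets. Between IL6 and IFNalpha 5 of 30 were called (16.7%, against 6.96% of single-symbol genes): LGI1 (1.01), NEDD4L (0.87), MCOLN2, an endolysosomal channel (0.65, with the IFNalpha mean below the lower quartile), and SGK1 (0.60) were higher with IL6, and FGF13 (-1.27) was lower. MCOLN2 (0.52) and SGK1 (0.39) fell below the fold minimum without IL6 array 1, as did SGK1 without IFNalpha array 3 (0.40). SGK1 also lost this call over the mean of its probe sets (0.44). It did not pass with limma's robust option (adjusted p = 0.0595) or with limma on the compared groups alone (adjusted p = 0.0755).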

How the data were processed

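RNA from the cultures was hybridised, after biotin labelling, to 1-colour bovine Affymetrix arrays, 3 for each of 4 groups, per the labels. The deposited values are log2 expression levels, and the submitters' processing notes name RMA for them, with no version. RMA normalises arrays to each other and compresses differences of dim transcripts. The array means were all 6.79. Genes were ordered by level only to describe how bright their probe sets were.

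Of 24128 probe sets, 112 controls were left out. Gene symbols came from the platform annotation. limma 3.58.1 (R 4.3.3) fitted a mean per group over all 12 arrays with a trended prior, and p-values were adjusted by Benjamini-Hochberg over 24016 probe sets. The fit was tested on simulated data. Genes named were those called, a fixed set of chromaffin cell channel genes and called partner genes. Others were chosen after their values were seen and say so, except P2RX2, CLCN3, GRIK5 and KCNH1, which were also chosen that way. The members and lists were chosen with earlier results of these data known. Alternatives covered the fold and level minimums, the normalisation, the probe-set rule, the variance model, the replicate block and leaving out arrays. Channel sequences were not analysed here.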

Additional observations from a re-analysis of the deposited data

Results flagged for a closer look

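The effects of IL6 and IFNalpha on 3 channel genes differed by the fitted test of the difference between both cytokines. CACNB3 was 0.61 higher with IL6 (limma adjusted p = 1.49e-05), CHRNB1 stood at -0.64 (adjusted p = 3.35e-05), and KCNIP2 stood at -0.64 (adjusted p = 1.34e-05). The KCNIP2 value is that of its brightest probe set: over the mean of its probe sets it was -0.22 (adjusted p = 0.0507) and not called. Groups of 3 arrays were not searched for outlying arrays.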

How the results depend on the processing

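No result changed sign among the calls. Without a fold minimum, members passed in 9 (IL6), 8 (IFNalpha), 21 (histamine) and 14 (IL6 against IFNalpha) cases; at a fold of at least 2, the calls were 0 for IFNalpha, 1 for histamine and 0 for IL6 against IFNalpha. With the 5 genes left out put back, 4 of 81 were called after IL6, 4 after IFNalpha, 4 after histamine and 6 between the cytokines. Of single-symbol genes, 2.76%, 3.95%, 6.98% and 6.96% were called in these comparisons. In the brighter 50% of probe sets no member was called after histamine (0), since KCNB2 and GRIK1 lie outside it. There 15 of the 18 members passed the F test. The share over all brighter probe sets was not counted, so this count has no background beside it. limma's test against a fold of 1.2 called 7 between IL6 and IFNalpha. The share over all probe sets was not counted at this setting or at a fold of at least 2. Leaving out each array in turn, the cytokine calls ranged from 1 to 3, with 1 without IL6 replicate 1. Replicate numbers were not taken to pair the arrays in the main fit, since the labels give no batch. Of the 18 same-number pairs, 7 deviated together at a correlation over 0.1, up to 0.60. By these deviations 9 of 12 arrays correlated best with an array of their own number, a hint of pairing that the main fit did not use. With the replicate number as a block, the calls were 0, 3, 2 and 3 and the F test passed 30. KCNMA1 had -0.35 after IFNalpha over the mean of its probe sets. Without the 3 arrays high in hypoxia genes 4 members were called between the cytokines, GRIK1 (0.62) joining. Over the alternatives run, KCNB2 after histamine ranged from 1.76 to 1.84, GRIK1 from -1.05 to -0.95 after histamine and from -0.83 to -0.68 after IFNalpha, and CHRNB1 after IFNalpha from 0.69 to 0.71; all kept their calls. The number of arrays limits the precision.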
